A study of Homo sapiens with 6 samples.

Results

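Interferon-stimulated genes and interferon regulatory factors (IRFs) were followed in cells labelled HepG2, an established human liver cancer line, after knockdown of the transcription factor SOX9. The set held 41 genes named in a list, among them RIGI, which the deposited table carries under its older name DDX58. All 41 were found among 18574 genes, through 107 of 46240 probe sets that the table assigns to a single gene. The rule used gene names and no signal, and no filter removed a member. The members, and the further gene lists used below, were nevertheless chosen with earlier results of these data known. A probe set shared by IRF9 and RNF31 was left out.

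There were 2 groups of 3 expression arrays each. The knockdown cells (shSOX9) carried a virus with a short hairpin RNA against SOX9, and the control cells carried an empty virus. The labels speak of a knockdown clone and a negative control clone, so the hairpin and the difference between clones cannot be told apart. Whether the 3 arrays of each group stand for independent cultures is not stated, and the p-values therefore reflect array-to-array spread that may be technical. Both groups were infected, so the values do not show what infection alone did to these genes. Uninfected cells were not analysed here.

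SOX9 read 6.91, 7.08 and 6.90 in shSOX9 arrays, against 8.15, 7.99 and 7.67 in control arrays, all as log2 signal. The groups did not overlap, and 51.0% of the control signal was left (limma adjusted p = 0.00114). In such bulk samples, fewer cells that express a gene and less RNA per cell cannot be told apart. Array medians lay between 5.43 and 5.48. The description field of the knockdown samples names the empty virus. On the probe set that stood for it, SOX9 was lower in all 3 arrays titled as knockdown than in any control array. Another SOX9 probe set also fell without overlap (limma adjusted p = 0.00470 over all probe sets). On a further SOX9 probe set the groups overlapped and it did not pass (limma adjusted p = 0.0716 over all probe sets). There control replicate 3, at 4.67, lay under shSOX9 replicate 3, at 4.76. Of 11 hepatocyte markers, 3 had a mean of at least 5 in either group, and ALB, the albumin gene, read 3.37 in shSOX9 and 3.14 in control arrays. AFP read 2.61 in shSOX9 and 2.70 in control arrays, and APOA1 4.60 in shSOX9 and 4.81 in control arrays. HepG2 cells are known to express these 3 genes strongly, so the low values go against that label. Such a mean was found for 3 of 10 markers of leukocytes, 3 of 7 of endothelium, 3 of 7 of fibroblasts and 0 of 5 of plasmacytoid dendritic cells, which are known as strong interferon producers. Of these lists, 2 hepatocyte markers (HNF4A and FOXA1), 1 leukocyte marker (CD68) and 1 fibroblast marker (DCN) rose and 0 fell. Among all genes 8.41% rose and 8.35% fell. The summed log2 signal of the hepatocyte list ran from 45.7 to 47.6 in shSOX9 arrays and from 43.4 to 46.2 in control arrays. That of the leukocyte list ran from 40.5 to 42.3 in shSOX9 arrays and from 38.7 to 40.7 in control arrays, and that of the fibroblast list from 28.8 to 29.5 in shSOX9 arrays and from 28.2 to 28.9 in control arrays. The groups overlapped in all 3 sums, and their part in the results was not tested.

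Cells sense viral RNA with helicases such as RIG-I and MDA5, and the signal reaches the factors IRF3 and IRF7, which turn on interferon genes. Secreted interferon binds its receptor and sets off a complex that holds STAT2 and IRF9 and binds the interferon-stimulated response element (ISRE) in the promoters of its targets. Those targets include the sensors and IRF7 themselves, enzymes that degrade or edit RNA, and proteins that hold virus particles at the membrane. Liver cells are known to make and to answer interferon during viral hepatitis.

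The called members of the set went both ways. ISG20, IRF7, DDX60, IFIH1, IRF1 and STAT2 fell in shSOX9 cells, and SAMHD1, BST2 and OAS3 rose. Of the 41 genes, 9 were called (limma adjusted p under 0.05 over all genes), or 22.0%, where 16.8% of all genes were called. The 3 that rose made up 7.32% of the set against 8.41% of all genes, and the 6 that fell made up 14.6% against 8.35%. Among the 34 members with a mean of at least 5 in either group 8 were called, where 25.0% of all genes at that level were. Without control replicate 3, which lay nearest to the shSOX9 arrays of the controls for 5 of the 9 called members, 3 members rose and 6 fell, with IFIT5 called and STAT2 not. The median log2 fold change (shSOX9 minus control) was -0.06 over the set and 0.03 over all genes. Its median absolute size was 0.13 over the set and 0.14 over all genes. The groups did not overlap for 16 members (39.0%, against 32.4% of all genes), 5 of them higher and 11 lower in shSOX9. ISG20 was the 1 member with a change of at least 2-fold.

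**Figure D1:**
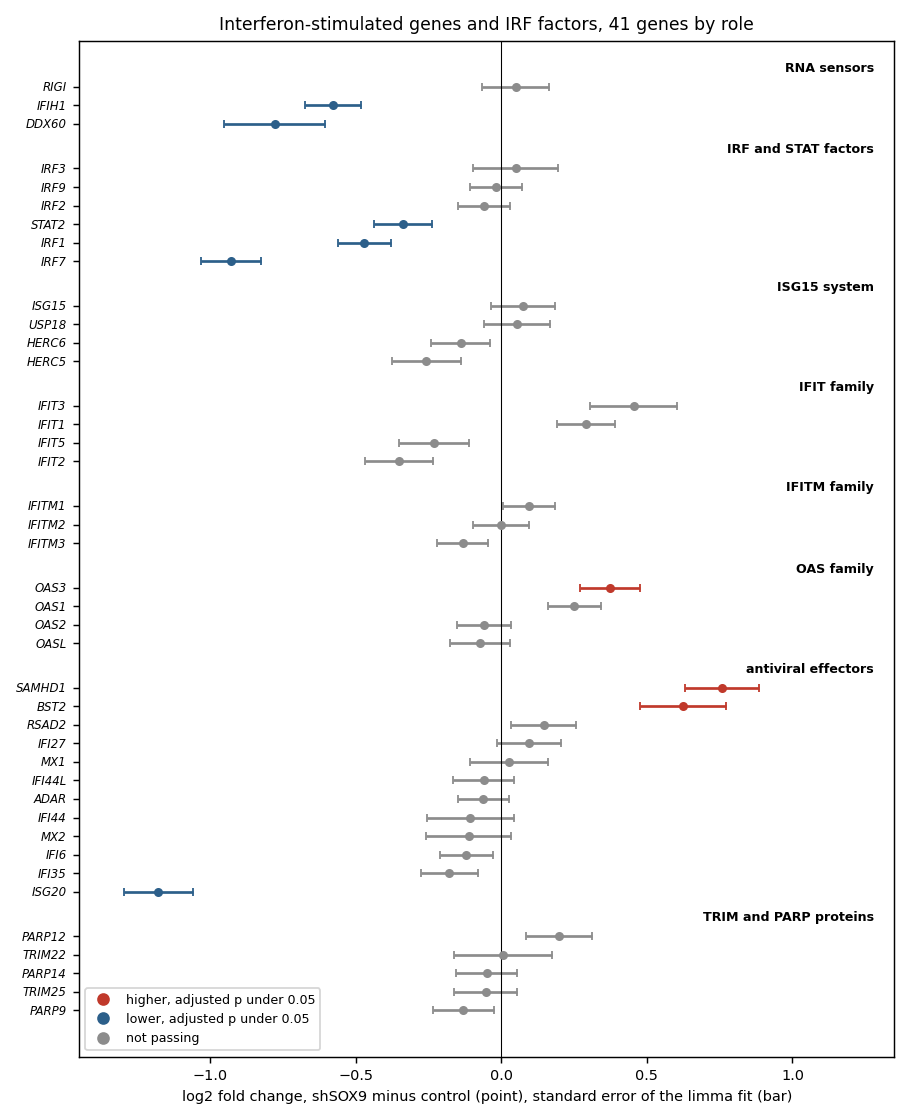
Log2 fold change of each of the 41 genes (shSOX9 minus control, horizontal axis) with the standard error of the limma fit, grouped by role down the page, with coloured points for adjusted p under 0.05. The 6 falls run from -1.18 for ISG20 to -0.34 for STAT2 and the 3 rises from 0.37 for OAS3 to 0.76 for SAMHD1, while the largest of the other 32 in size is 0.45 for IFIT3.

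Basal levels differed widely. Mean log2 signals ran from 3.04 to 11.50 in shSOX9 arrays and from 3.16 to 11.51 in control arrays. A level belongs to its own probe set and cannot rank genes against each other. Under 5, where the summary method used by the authors compresses differences, lay both group means of 7 members: MX1, MX2, IFI44, IFI44L, RSAD2, RIGI and DDX60. These made up 17.1% of the set, against 36.1% of all genes. MX1, a dynamin-like GTPase that traps viral nucleocapsids and a standard marker of an interferon response, read 3.45, 3.26 and 2.96 in shSOX9 arrays and 3.08, 3.18 and 3.32 in control arrays. RSAD2, the antiviral enzyme viperin, read 4.08 ± 0.10 in shSOX9 and 3.94 ± 0.16 in control arrays (SD, n = 3). MX1, MX2, IFI44 and IFI44L thus read low in both infected groups, and the groups overlapped for each of them and for RSAD2. Other members read high in both groups. IFITM2 averaged 11.50 ± 0.06 in shSOX9 and 11.51 ± 0.11 in control arrays, and IFITM3 10.37 ± 0.02 in shSOX9 and 10.51 ± 0.05 in control arrays (SD, n = 3). ISG15 read 9.28, 9.20 and 8.96 in shSOX9 arrays and 8.99, 9.06 and 9.15 in control arrays. ISG15 is strongly induced in an interferon response; here its groups overlapped.

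**Figure D2:**
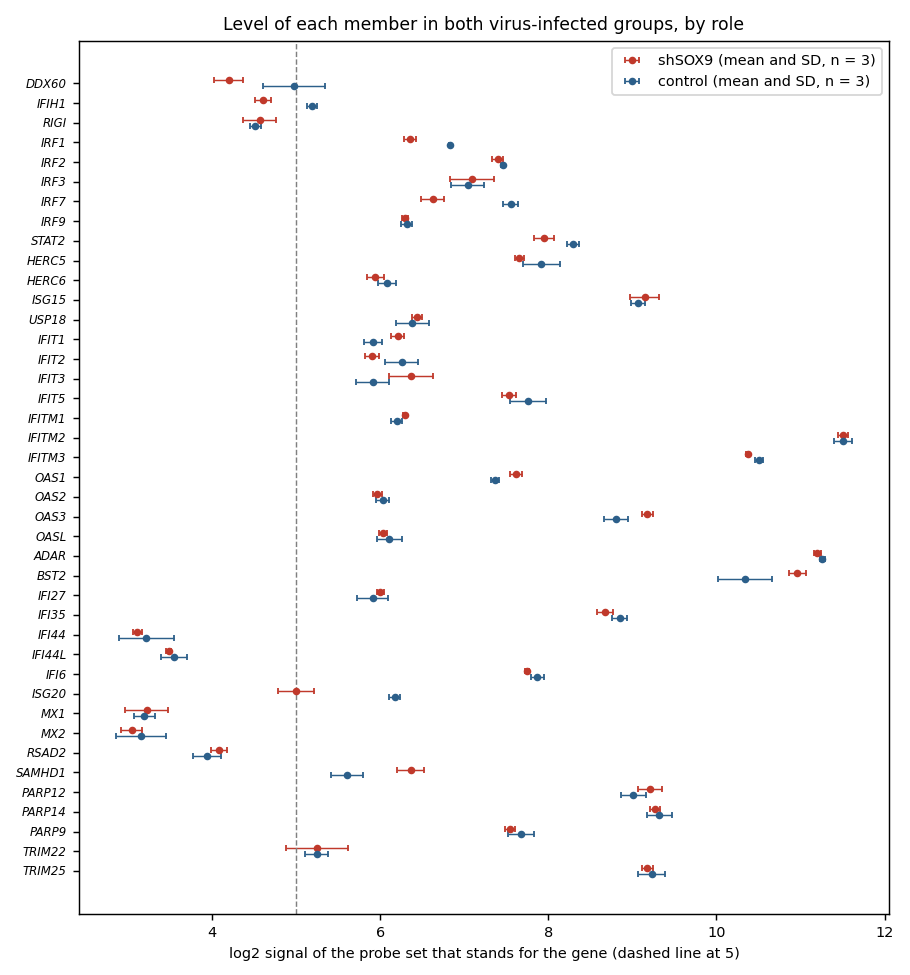
Mean log2 signal with SD (n = 3) of each member in shSOX9 (red, upper point) and control arrays (blue, lower point), grouped by role, with a dashed line at 5. MX1, MX2, IFI44, IFI44L, RSAD2, RIGI and DDX60 lie left of the line in both groups, and IFITM2 reads 11.50 and 11.51.

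The interferon genes themselves read low in both groups. Of 20 ligand genes listed, 17 were measured, and all 17 read under 5 in both groups, between 2.10 and 4.43 in shSOX9 and between 2.13 and 4.27 in control arrays. By limma, 0 of the 17 passed, and 0 had an unadjusted p under 0.05, against 16.8% and 5312 of all 18574 genes. Those shares cover genes of every level. Of the 3114 called genes, 2965 had a mean of at least 5 in either group, so few genes as low as the ligands were called. At such levels a change could be missed.

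Receptor chains moved both ways. In the list of ligands, receptors and JAK-STAT genes, 2 of 34 measured genes rose and 2 fell, or 11.8%, against 16.8% of all genes, with a median log2 fold change of 0.03. Only 15 of the 34 had a mean of at least 5 in either group, so the 2 shares cover unlike levels. IFNAR1 and IFNAR2, the chains of the type I interferon receptor, rose by 0.41 (SE 0.10, limma adjusted p = 0.0160) and 0.40 (SE 0.11, limma adjusted p = 0.0305) on the log2 scale. IFNAR1 averaged 8.01 ± 0.11 in shSOX9 and 7.60 ± 0.01 in control arrays (SD, n = 3). IFNGR1, the ligand-binding chain of the interferon gamma receptor, changed by -0.41 (limma adjusted p = 0.0203). IL10RB, a chain shared by the receptors of interferon lambda and interleukin-10, changed by -0.61 (limma adjusted p = 0.00531). For each of these 4 genes the groups did not overlap. A single probe set stood for each gene, and those of IFNAR1, IFNAR2 and IL10RB are of the _x_at kind, which can match related transcripts.

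RNA sensors among the members moved unequally. IFIH1, which encodes the helicase MDA5, read 4.72, 4.56 and 4.56 in shSOX9 arrays, against 5.15, 5.26 and 5.15 in control arrays. It fell to 67.0% of the control signal (log2 fold change -0.58, SE 0.10, limma adjusted p = 0.00314), and every shSOX9 array lay under every control array. Its second probe set, with group means of 2.55 in shSOX9 and 2.71 in control arrays, differed by -0.16 and did not pass. DDX60, a helicase linked to RIG-I signalling, read 4.07, 4.14 and 4.39 in shSOX9 arrays and 4.90, 5.38 and 4.65 in control arrays. The control arrays of DDX60 spread widely (SD 0.37, n = 3) yet stayed above the shSOX9 arrays. Its log2 fold change was -0.78 (SE 0.17, limma adjusted p = 0.0125), and without shSOX9 replicate 1 the adjusted p was 0.0569. RIGI, which encodes RIG-I, read 4.57 ± 0.20 in shSOX9 and 4.52 ± 0.07 in control arrays (SD, n = 3), with overlapping groups and a limma adjusted p of 0.846.

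Further sensors and adaptors, from a list beside the members, held 2 that rose and 3 that fell of 28 measured (17.9%, against 16.8% of all genes), with a median of 0.11. A mean of at least 5 in either group was found for 15 of the 28. IRAK4, a kinase that Toll-like receptors use through MYD88, changed by -0.93 (limma adjusted p = 0.00131), and TANK, a scaffold of the kinase TBK1, by -0.62 (limma adjusted p = 0.0290). TLR3, a receptor for double-stranded RNA, changed by -0.37, TLR4 by 0.39 and the nucleic acid sensor ZBP1 by 0.39. These last 3 read under 5 in both groups.

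Among the factors that relay the signal, 3 of 6 members fell and 0 rose, where 8.35% of all genes fell and 8.41% rose, and 0 had an unadjusted limma p under 0.05 for a rise. IRF7, which drives the broad wave of interferon alpha genes, read 6.78, 6.59 and 6.51 in shSOX9 arrays, against 7.46, 7.56 and 7.64 in control arrays. That is 52.6% of the control signal (log2 fold change -0.93, SE 0.10, limma adjusted p = 5.13e-04), and the gap between the groups was wider than the range within either. IRF1, an activator downstream of interferon gamma, read 6.39, 6.41 and 6.27 in shSOX9 arrays and 6.82, 6.83 and 6.83 in control arrays. The control arrays of IRF1 were nearly identical, and the log2 fold change was -0.47 (SE 0.09, limma adjusted p = 0.00636). Of its 4 probe sets 2 fell; the other two differed by -0.13 and 0.05, and the mean of all 4 did not pass (-0.24, limma adjusted p = 0.103).

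STAT2, which works with IRF9 in the ISRE-binding complex, read between 7.82 and 8.04 in the 3 shSOX9 arrays and between 8.21 and 8.35 in the 3 control arrays. The groups did not overlap. Its log2 fold change was -0.34 (SE 0.10, limma adjusted p = 0.0442). This call was lost whichever array was left out, with adjusted p between 0.0539 (without control replicate 2) and 0.145 (without shSOX9 replicate 3), and none of its 5 probe sets passed over all probe sets. IRF9, the DNA-binding subunit of that complex, read 6.30 ± 0.03 in shSOX9 and 6.32 ± 0.06 in control arrays (SD, n = 3). IRF3, the constitutive factor that starts interferon beta transcription, read 7.09 ± 0.26 in shSOX9 and 7.04 ± 0.19 in control arrays. IRF2, known as an antagonist of IRF1, read 7.40 ± 0.07 in shSOX9 and 7.46 ± 0.01 in control arrays. The groups overlapped for IRF2, IRF3 and IRF9.

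Promoters are shown because many members are known targets of the ISRE-binding complex while the called members moved in both directions. RefSeq promoters (build GRCh38.p14, from 250 bases before to 50 after the gene start) were matched for 31 of the 41 members. The ISRE was searched as GAAA, any 2 bases and GAAA, on both strands, with overlapping matches counted. It was found in 19 of the 31 (61.3%), against 3.65% of 27305 promoters. Of the called members with a promoter, 2 of 3 that rose and 3 of 5 that fell held it, as did 14 of 23 that did not pass. The sites shown, 1 per gene (IFIH1, DDX60, OAS3, BST2 and ISG15 hold more), are read along the gene's own strand, with the ISRE letters in capitals. They lie at chr15:88638937-88638966 for ISG20 (plus strand), chr2:162318686-162318715 for IFIH1 (minus), chr4:168318786-168318815 for DDX60 (minus), chr12:112938321-112938350 for OAS3 (plus), chr19:17405741-17405770 for BST2 (minus) and chr1:1013380-1013409 for ISG15 (plus).
ISG20: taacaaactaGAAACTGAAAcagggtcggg
IFIH1: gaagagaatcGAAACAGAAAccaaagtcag
DDX60: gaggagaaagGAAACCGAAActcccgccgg
OAS3: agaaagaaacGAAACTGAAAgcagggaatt
BST2: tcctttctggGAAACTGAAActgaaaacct
ISG15: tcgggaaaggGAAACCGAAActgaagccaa
The same letters GAAACTGAAA stand in ISG20 and DDX60, which fell, in OAS3 and BST2, which rose, and in IFITM1, which did not pass. GAAACCGAAA stands in DDX60 too, at the site shown, and in ISG15, MX1 and IFITM3, which did not pass. On the other strand, GAAACTGAAA was found in IFI44 and IFIT5, and GAAACCGAAA in IFI27, IFIT1, IFIT5 and PARP12, none of which passed. The letters therefore do not sort the genes by direction. The gamma-activated site, searched as TTCNNNGAA, which reads the same on both strands, was found in 9 of the 31 promoters (29.0%, against 7.88% of all). A SOX motif, AACAAT on either strand, was found in 2 (6.45%, against 10.3% of all), IFIH1 and PARP9. Matches describe these windows only.

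ISG20 and BST2 are shown with the 250 bases before the start, at chr15:88638766-88639015 (plus) and chr19:17405631-17405880 (minus), as the called effectors with the largest fall and with the highest count of matches among those that rose. IRF1 is shown at chr5:132490774-132491023 (minus) as a called factor with a gamma-activated site and no ISRE letters. Capitals mark ISRE and gamma-activated site letters, which overlap in BST2.
ISG20: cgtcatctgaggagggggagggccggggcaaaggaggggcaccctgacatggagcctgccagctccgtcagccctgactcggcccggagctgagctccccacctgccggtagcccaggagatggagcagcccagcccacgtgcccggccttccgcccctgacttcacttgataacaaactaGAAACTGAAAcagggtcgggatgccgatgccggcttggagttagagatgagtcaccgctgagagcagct
BST2: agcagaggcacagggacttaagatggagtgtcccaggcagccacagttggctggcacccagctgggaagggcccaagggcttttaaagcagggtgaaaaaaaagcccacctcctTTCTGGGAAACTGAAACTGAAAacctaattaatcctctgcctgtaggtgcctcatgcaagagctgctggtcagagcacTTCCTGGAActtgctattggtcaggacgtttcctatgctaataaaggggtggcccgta
IRF1: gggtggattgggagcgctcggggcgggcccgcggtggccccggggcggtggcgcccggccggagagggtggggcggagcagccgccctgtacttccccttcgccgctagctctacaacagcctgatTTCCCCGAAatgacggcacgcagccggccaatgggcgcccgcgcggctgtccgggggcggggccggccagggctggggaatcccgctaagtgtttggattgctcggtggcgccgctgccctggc

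Effectors gave the largest fall and the largest rise of the set. ISG20, an RNA exonuclease, read 5.24, 4.94 and 4.82 in shSOX9 arrays, against 6.15, 6.13 and 6.25 in control arrays. It fell to 44.2% of the control signal (log2 fold change -1.18, SE 0.12, limma adjusted p = 3.05e-04), with a wide gap between the groups and 1 probe set. SAMHD1, which hydrolyses deoxynucleotides and so starves reverse transcription, read 6.45, 6.18 and 6.46 in shSOX9 arrays and 5.53, 5.46 and 5.82 in control arrays. It rose 1.69-fold (log2 fold change 0.76, SE 0.13, limma adjusted p = 0.00323), and every shSOX9 array lay above every control array. Of its 4 probe sets, 2 rose, and the other two differed by 0.39 and 0.07.

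BST2, or tetherin, which holds budding virus particles at the cell surface, read 11.02, 11.02 and 10.85 in shSOX9 arrays and 10.13, 10.18 and 10.70 in control arrays. Control replicate 3 stood near the shSOX9 arrays, and the rise was 1.54-fold (log2 fold change 0.62, SE 0.15, limma adjusted p = 0.0175). Without control replicate 3 the log2 fold change was 0.81 (limma adjusted p = 0.00182). The call was lost without control replicate 1 (limma adjusted p = 0.0699), control replicate 2 (0.0547), shSOX9 replicate 1 (0.0706) or shSOX9 replicate 2 (0.0543). Of its 4 probe sets 3 rose by 0.58 to 0.62, and the fourth, with means of 2.52 in shSOX9 and 2.27 in control arrays, did not pass.

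**Figure D3:**
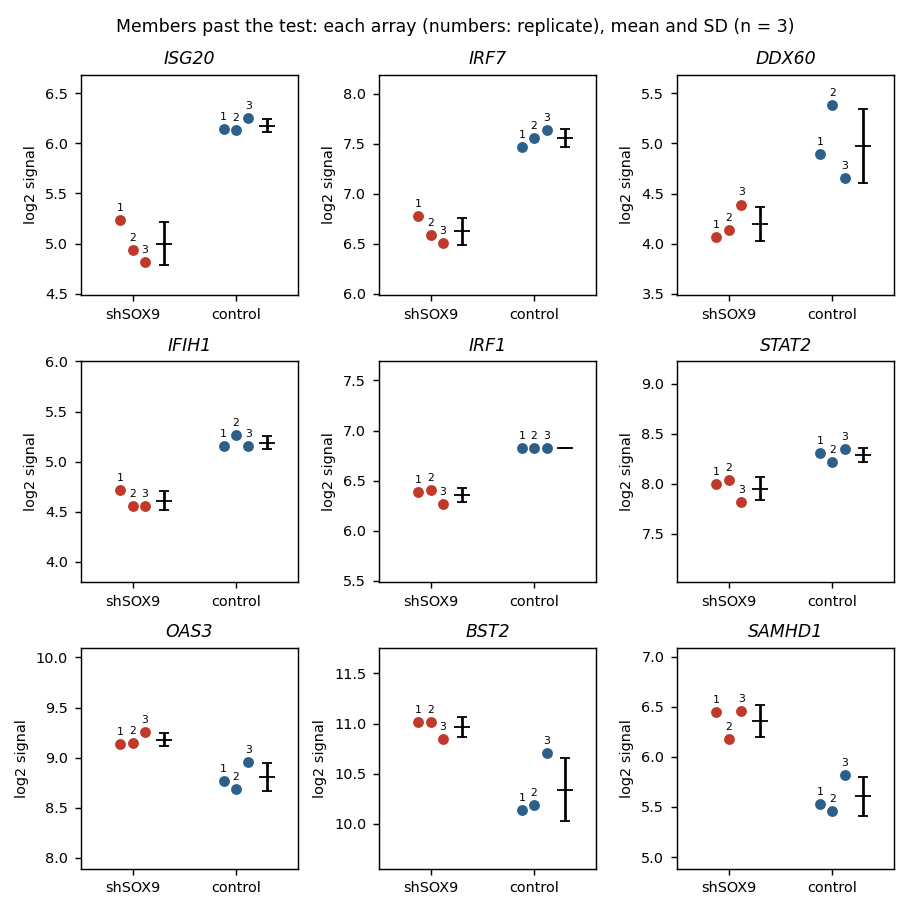
Log2 signal of the 9 called members on each array (numbered by replicate), with mean and SD (n = 3) beside each group, shSOX9 in red and control in blue; each panel spans the same 2.2 log2 units. The groups do not overlap in any panel, and control replicate 3 of BST2, at 10.70, lies closest to the other group.

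The OAS genes make a short oligoadenylate that activates the nuclease RNase L, except OASL, which lacks that activity. The table places all 4 at 12q24.2. OAS3 read 9.14, 9.15 and 9.25 in shSOX9 arrays, against 8.77, 8.69 and 8.96 in control arrays. Its groups did not overlap and it rose 1.30-fold (log2 fold change 0.37, SE 0.10, limma adjusted p = 0.0327). The call held without control replicate 3 (0.45, limma adjusted p = 0.0152) and was lost without any of the other 5 arrays, at adjusted p from 0.0774 (without shSOX9 replicate 2) to 0.104 (without shSOX9 replicate 3 or control replicate 1). OAS1 read 7.62 ± 0.07 in shSOX9 and 7.36 ± 0.05 in control arrays (SD, n = 3), without overlap, and did not pass (limma adjusted p = 0.0953). OAS2 and OASL differed by -0.06 and -0.07, and their groups overlapped.

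The IFIT genes, of which some encode proteins that bind the ends of foreign RNA, did not pass in either direction. By limma 0 of 4 were called, against 16.8% of all genes. IFIT3 differed by 0.45 (limma adjusted p = 0.0637) and IFIT1 by 0.29 (limma adjusted p = 0.0741), while IFIT2 differed by -0.35 (limma adjusted p = 0.0682) and IFIT5 by -0.23 (limma adjusted p = 0.245). At an unadjusted p under 0.05, 3 of the 4 were counted, 2 higher and 1 lower, as were 5312 of all 18574 genes. IFIT3 read 6.51, 6.52 and 6.06 in shSOX9 arrays and 5.96, 5.69 and 6.08 in control arrays, so its groups overlapped through shSOX9 replicate 3, and it passed without that array (0.60, limma adjusted p = 0.0217). IFIT2 passed without control replicate 1 (-0.46, limma adjusted p = 0.0340) and IFIT5 without control replicate 3 (-0.35, limma adjusted p = 0.0460). The groups did not overlap for IFIT1, higher in shSOX9, or for IFIT2, lower in shSOX9, as for 32.4% of all genes. The probe set of IFIT3 is of the _x_at kind, which can match related transcripts.

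The IFITM genes encode small membrane proteins that block the fusion of viruses with endosomes. By limma 0 of the 3 passed, and 0 had an unadjusted p under 0.05. Of all 18574 genes, 16.8% passed and 5312 had such an unadjusted p. With so few genes, a count of 0 does not show that the family was stable. The log2 fold changes were 0.09 for IFITM1, -0.001 for IFITM2 and -0.13 for IFITM3. The probe sets of IFITM2 and IFITM3 are of the _x_at kind, which can match related transcripts, so these 2 genes may share signal. The table places the 3 genes at 11p15.5, the band it also gives for IRF7, which fell by 0.93.

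ISG15 is a small protein that is attached to others like ubiquitin; HERC5 is the main human ligase for it, HERC6 a relative, and USP18 removes it. By limma 0 of these 4 passed, and 0 had an unadjusted p under 0.05, against 16.8% and 5312 of all 18574 genes. ISG15 differed by 0.08, USP18 by 0.05, HERC6 by -0.14 and HERC5 by -0.26 (limma adjusted p = 0.194). HERC5 was the 1 of the 4 whose groups did not overlap, which held for 32.4% of all genes. It read 7.72, 7.62 and 7.64 in shSOX9 arrays and 7.74, 7.84 and 8.16 in control arrays.

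The remaining members did not pass. TRIM25, a ubiquitin ligase that acts in RIG-I signalling, and TRIM22 differed by -0.05 and 0.005, and the ADP-ribosyltransferase family members PARP9, PARP12 and PARP14 by -0.13, 0.20 and -0.05. For these 5, 0 had an unadjusted limma p under 0.05, against 5312 of all 18574 genes. A weaker probe set of PARP14, with means of 5.29 in shSOX9 and 5.74 in control arrays, fell by 0.44 (limma adjusted p = 0.0178, on the probe-set scale). The editing enzyme ADAR differed by -0.06, IFI6 by -0.12, IFI35 by -0.18, IFI27 by 0.09, MX2 by -0.11, IFI44 by -0.11 and IFI44L by -0.06.

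Probe sets of 1 gene did not always move alike. Of the 107, 7 rose and 7 fell, or 13.1%, against 12.6% of all 49293 probe sets, of which 5.94% rose and 6.68% fell. Of 26 members with more than 1 probe set, 12 had sets of opposite sign, PARP9 from -0.52 to 0.23 among them. SAMHD1, BST2, OAS3 and IFIH1 had sets of 1 sign of which some passed and some did not.

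**Figure D4:**
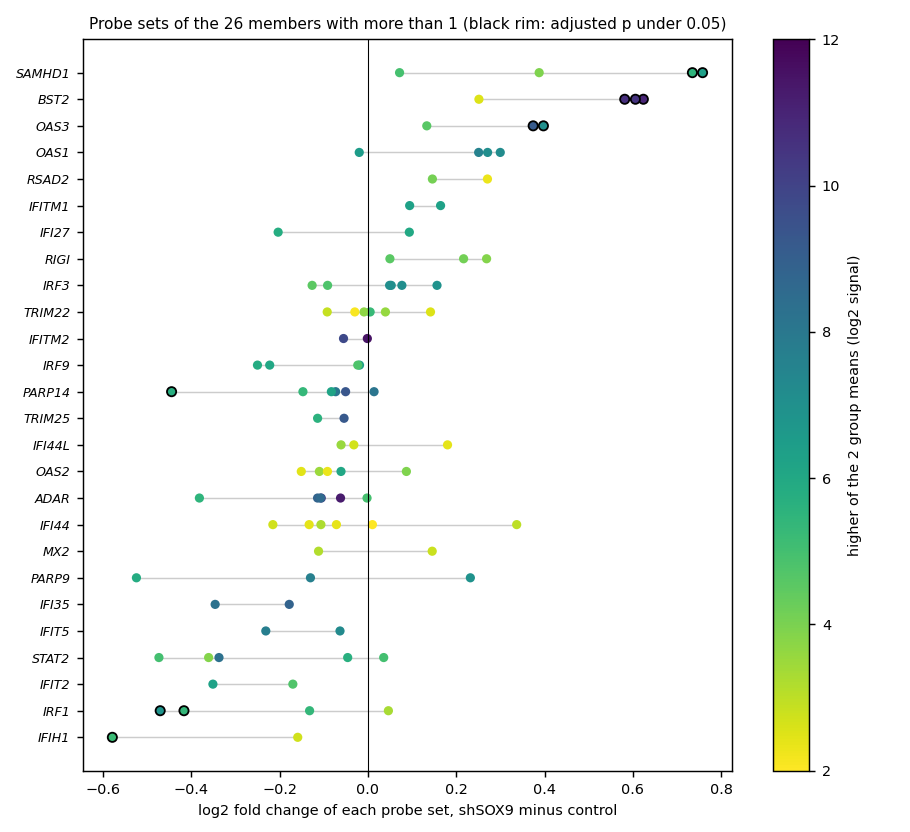
Log2 fold change of each probe set (shSOX9 minus control) for the 26 members with more than 1, coloured by the higher of the 2 group means in log2 signal, with a black rim where the adjusted p over all probe sets was under 0.05. SAMHD1, BST2 and OAS3 have their strongest sets to the right, while sets of PARP9 lie on both sides, at -0.52 and 0.23.

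Interferon-stimulated genes outside the set moved both ways too. Of 64 measured in a list beside the members, 9 rose and 5 fell, or 21.9%, against 16.8% of all genes, with a median of 0.08. A mean of at least 5 in either group was found for 42 of the 64. SLFN5, a member of the Schlafen family, changed by -1.28 (limma adjusted p = 0.00243). APOBEC3B, a cytidine deaminase with close relatives that its _x_at probe set can match, rose by 1.04 (limma adjusted p = 6.69e-04), and the guanylate-binding protein GBP3 by 0.84 (limma adjusted p = 5.37e-04), with GBP3 under 5 in both groups. PSMB10, a subunit of the immunoproteasome, rose by 0.65, CNP by 0.57 and TAP2, a chain of the peptide transporter for antigen presentation, by 0.55.

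Signs of RNA quality differed between the arrays. The GAPDH control signal at the 3' end minus that at the 5' end was 0.42, 0.37 and 0.24 in shSOX9 arrays and 0.04, 0.03 and 0.26 in control arrays, so control replicate 3 lay within the shSOX9 range. The same difference for actin went the other way, at 2.29, 2.34 and 2.19 in shSOX9 arrays and 2.56, 2.55 and 2.51 in control arrays, without overlap. The poly-A spike-in RNAs, added before labelling, read 7.12, 6.79 and 6.93 in shSOX9 arrays and 6.36, 6.48 and 6.95 in control arrays. With their level as a covariate, ISG20 (-1.31, limma adjusted p = 0.00569), IRF7 (-1.05, limma adjusted p = 0.00670) and IFIH1 (-0.60, limma adjusted p = 0.0424) still passed and the other 6 called members did not, SAMHD1 among them (0.54, limma adjusted p = 0.0600). The log2 fold change of BST2 was then 0.34. The part of RNA quality or labelling in these results was not tested further.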

How the data were processed

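RNA of 3 shSOX9 and 3 control samples was biotin-labelled and measured on 6 arrays per the labels' protocols, and their number limits the precision. The deposited log2 values were made by the authors with RMA and the affy package, per the submitters' processing notes; the array design was not given in the sources used here, nor were tool versions or the build of its annotation. All deposited values stood in 2 tables without a difference. Of 49293 probe sets that were no controls, 46240 had 1 gene; 46035 were named through Entrez numbers and a RefSeq table of GRCh38.p14. The probe set with the highest mean stood for each gene. Testing used R 4.3.3 with limma 3.58.1: lmFit, then eBayes, two-sided, without covariate or signal filter, shSOX9 minus control, with Benjamini-Hochberg adjustment over all 18574 genes or all probe sets and a threshold of 0.05. The code was tested on simulated data. Tables and plots used Python 3.11.15, pandas 2.3.3 and matplotlib 3.10.9. Named were SOX9, all members, up to 6 called genes of each list beside them, and up to 3 markers of a cell type; 1 further named gene is not reported here. The members and lists were chosen with earlier results of these data known. Alternatives were a signal filter, further normalization, other variance models, array weights, replicate numbers as a block, other probe sets and leaving out each array; the spike-in covariate was chosen after seeing the data.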

Additional observations from a re-analysis of the deposited data

How the results depend on the processing

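Of 9 called members, ISG20 and IRF7 passed under all 18 alternatives. STAT2 lost its call under 12 of them and OAS3 under 10. The 3 rises and 6 falls became 6 and 6 when only genes with a mean of at least 5 were tested (IFIT1, IFIT3 and OAS1 joined the rises and IFIT2 the falls, and DDX60 was not tested). The rises became 5 with repeated quantile normalization and 5 with array weights. Leaving out 1 array gave 1 to 3 rises, 4 to 6 falls and 1758 to 3563 called genes, against 3114. The spike-in covariate gave 0 rises by limma (3 at an unadjusted p under 0.05), 3 falls and 767 called genes; the cause was not tested. SOX9 differed by -0.81 (limma adjusted p = 0.0526) when the most variable probe set stood for each gene and by -0.81 (0.0546) with probe sets ending in _at. IFI44, at -0.11 and not passing, read 0.34 (limma adjusted p = 0.0440) on such a probe set, under 3 in both groups. With the replicate number as a block, 2 rises, 5 falls and 2181 genes were called. Same-numbered arrays deviated from their group means with correlations of -0.20, -0.42 and -0.35, and no array correlated best with its own number. With 3 arrays per group, such correlations cannot show whether same-numbered samples were handled together. Low signals limit what MX1, MX2, IFI44, IFI44L, RSAD2, RIGI and DDX60 can show.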

Other observations

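The probe set shared by IRF9 and RNF31, left out of the set, read 6.22 in shSOX9 and 6.06 in control arrays.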
